A study of Homo sapiens with 9 samples.

Results

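Cells labelled OGT_KO were set directly against cells labelled TR11B_KO. Members were chosen by sample title, and they are 6 of the 9 RNA-seq libraries of the series, 3 in each group. Both groups are labelled as A549, a human lung adenocarcinoma line, and as carrying a Lenti-CRISPR-V2 plasmid, directed at OGT in the first group and at TR11B in the second. The remaining 3 libraries, NC, received the empty plasmid. They took no part in the test, and their levels are quoted as values only. No dose, time, guide sequence or clone is given in the labels. Within a group the column names differ by replicate number alone. What a guide, a clone or an off-target edit contributed cannot be told apart from what the knockout did. Although the titles call the samples biological replicates, nothing states that they came from separate cultures, and p-values therefore measure only how far these samples spread, and that spread may be technical.

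OGT is the enzyme that attaches single N-acetylglucosamine sugars to serine and threonine residues of nuclear and cytosolic proteins, among them transcription factors, chromatin proteins and kinases. TR11B is the protein-database name of osteoprotegerin, a secreted decoy receptor for the TNF-family ligands RANKL and TRAIL, and was read here as the gene TNFRSF11B. The direct comparison asks by which genes and gene programmes the pair of knockout populations can be told apart.

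The A549 label was checked against 14 genes that mark this line, and 9 of them (KRT19, EPCAM, AKR1B10, AKR1C1, AKR1C2, AKR1C3, ALDH1A1, ALDH3A1 and GPX2) stayed under 1 CPM (the count of a gene scaled to the size of its library) in all 9 libraries, the highest value being 0.476 CPM. KRT7, KRT8, KRT18 and NQO1 were among those expressed. CDKN2A, a gene known to be deleted in A549, lay between 138 and 239 CPM in the 6 knockout libraries. Of the 3 genes listed for that deletion, MTAP was also expressed, while CDKN2B stayed under 1 CPM in all 9 libraries (highest 0.971 CPM). Most of these genes thus go against the label, CDKN2B does not, and the populations are called by their group names. Of the markers of other cell types, all 5 tabulated fibroblast genes and all 4 endothelial genes were under 1 CPM in every library, CD68 was the only one of 4 immune genes above it, and the neuronal genes SYP and TUBB3 were expressed. Of 8 tabulated alveolar and airway genes, 7 were under 1 CPM in every library. The remaining gene, ABCA3, had means of 138 CPM in OGT_KO and 213 CPM in TR11B_KO. Count totals ranged from 38327508 to 41920820, and TR11B_KO replicate 2 stood apart: its scaling factor was 0.797 against 0.934 to 1.19 in the other 5, and rank correlations across genes within TR11B_KO were 0.959, 0.983 and 0.97 against 0.989 to 0.99 within OGT_KO.

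OGT (chromosome X, 71533104 to 71575892, GRCh38) had 20.8, 27.6 and 22.7 CPM in OGT_KO and 17.4, 11.3 and 12.6 CPM in TR11B_KO, with a mean of 26.5 CPM in NC. Its mRNA was thus not lower in the libraries labelled OGT_KO, all 3 of which lay above all 3 libraries labelled TR11B_KO. The log2 fold change, given throughout as OGT_KO over TR11B_KO, was 0.78 ± 0.25 (SE, edgeR adjusted p = 0.0391). That call was lost in 7 of 17 other settings, including the removal of OGT_KO replicate 1, 2 or 3 or of TR11B_KO replicate 3 and a correction for gene length (0.49, adjusted p = 0.155), with adjusted p from 0.00301 to 0.19 over all 17. TNFRSF11B (chromosome 8, 118923557 to 118951885) had 1, 0 and 0 counts in OGT_KO and 3, 1 and 0 in TR11B_KO, against 31 over the 3 NC libraries. This was too low for the model, and an exact two-sided permutation test over the 6 libraries gave p = 0.4, where the smallest possible value is 0.1. OGA, which removes the sugar that OGT adds, had 2.13, 3.06 and 1.04 CPM against 3.81, 2.38 and 5.63 CPM, overlapping groups with a log2 fold change of −0.93 ± 0.41 (adjusted p = 0.116). Below, OGT_KO and TR11B_KO stand for the libraries labelled so.

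The populations differed in 25.6% of the genes tested, in both directions at once. Of 12288 genes, edgeR called 3145 at an adjusted p under 0.05. In OGT_KO 1473 were higher, or 12% of those tested, and in TR11B_KO 1672, or 13.6%. Calls of at least 2-fold numbered 2137 (9.04% of tested genes higher in OGT_KO and 8.35% in TR11B_KO) and those of at least 4-fold 484. All 3 libraries of one group lay clear of all 3 of the other for 45.5% of the tested genes. Most genes named below were chosen because they were called, so a lack of overlap in them follows largely from that choice. The percentages 12 and 13.6 are the background against which the counts in the gene lists below are read. The total of 3145 became 1502, 1056 and 1765 without OGT_KO replicate 1, 2 and 3, while leaving out TR11B_KO replicate 1, 2 and 3 gave 4008, 5059 and 1915. The share of calls that were higher in OGT_KO was 46.8%, but it was 71.9% with library totals as the only scaling, where the median of all genes moved from 0.02 to 0.31 on the log2 scale, and 73.1% on the deposited FPKM.

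Among called genes whose log2 CPM averaged 2 or more and whose groups did not overlap, the largest difference in favour of OGT_KO was that of FAM20C, the secretory-pathway kinase that phosphorylates secreted proteins. It had 8.55, 9.1 and 8.62 CPM in OGT_KO and 0.0485, 0.0317 and 0.183 CPM in TR11B_KO. The groups were far apart, with a log2 fold change of 6.56, and NC lay between them at 0.793, 1.21 and 0.837 CPM. Versican (VCAN), a large matrix proteoglycan, had 127, 155 and 112 CPM against 2.09, 7.58 and 5.5 CPM (4.70 ± 0.41, edgeR adjusted p = 2.33e-05). Tenascin C (TNC), a matrix glycoprotein of remodelling tissue, had 19.1, 20.7 and 18 CPM against 0.655, 0.603 and 1.04 CPM (4.64 ± 0.32, adjusted p = 4.87e-06). Both matrix genes were therefore strongly separated, and their NC libraries again lay between the groups, at 20.5 to 28.5 CPM for VCAN and 3.12 to 5.34 CPM for TNC. The axonemal dynein gene DNAH17 had 10.2, 10.5 and 11.2 CPM in OGT_KO, while TR11B_KO, at 0.218, 0.603 and 0.522 CPM, was as low as NC at 0.228 to 0.676 CPM. For the annexin gene ANXA3 the low group was the one away from NC: OGT_KO had 10.6, 10.5 and 11.8 CPM, NC 8.09 to 12.9 CPM, and TR11B_KO 1.26, 0.412 and 0.209 CPM. Next in size were EPAS1, which encodes the hypoxia factor HIF-2alpha (3.91), the neural adhesion molecule L1CAM (3.46), the granule-release gene UNC13D (3.14), the microtubule-associated protein gene MAP1B (3.03), AFAP1L2 (2.95) and FRMD4A (2.91). CD99 followed with 15.2, 36 and 8.9 CPM against 3.71, 2.38 and 2.37 CPM (2.82), a wide spread within OGT_KO, and it was not called without TR11B_KO replicate 2.

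In the opposite direction, within the same limits, SPATC1L on chromosome 21 (46161160 to 46184459) had 22.7, 42.7 and 27.8 CPM in TR11B_KO and 0.0224, 0.022 and 0.0708 CPM in OGT_KO. In counts this was 3351 against 5, and the ratio of the sums was 0.00149 (95% exact interval 0.000484 to 0.00349, counting error only). SPATC1L was therefore close to silent in the libraries labelled OGT_KO and present in TR11B_KO and in NC, where it had 22.9 to 25.2 CPM. Smoothened (SMO), which passes the Hedgehog signal across the membrane, had 1.16, 0.681 and 1.04 CPM in OGT_KO against 30.5, 53.3 and 37.8 CPM (−5.40 ± 0.34, edgeR adjusted p = 3.57e-06). IGFBP4, a secreted protein that binds insulin-like growth factors, was abundant in TR11B_KO at 496, 627 and 575 CPM and had 23.9, 20.9 and 23.1 CPM in OGT_KO (−4.64 ± 0.22, adjusted p = 7.65e-07). NC lay between these groups at 107 to 121 CPM. The p53 target PHLDA3 had 0.224, 0.374 and 0.992 CPM against 31.8, 63.5 and 38.7 CPM (−6.40), and the membrane protein gene TMEM98 had 0.246, 0.0659 and 0 CPM against 12.9, 17.9 and 10.5 CPM (−6.99). In both genes the lowest TR11B_KO library was more than 10 CPM, and the highest OGT_KO library was under 1 CPM. The rest of the 12 largest differences on this side, within these limits, were KRT16, a keratin of stressed epithelium (−5.66), the guidance cue NTN1 (−5.16), the metalloproteinase inhibitor TIMP2 (−5.13), JPH3 (−4.84), the TNF-family cytokine lymphotoxin beta, LTB (−4.78), RASD2 (−4.77) and perlecan, HSPG2 (−4.29).

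**Figure D1:**
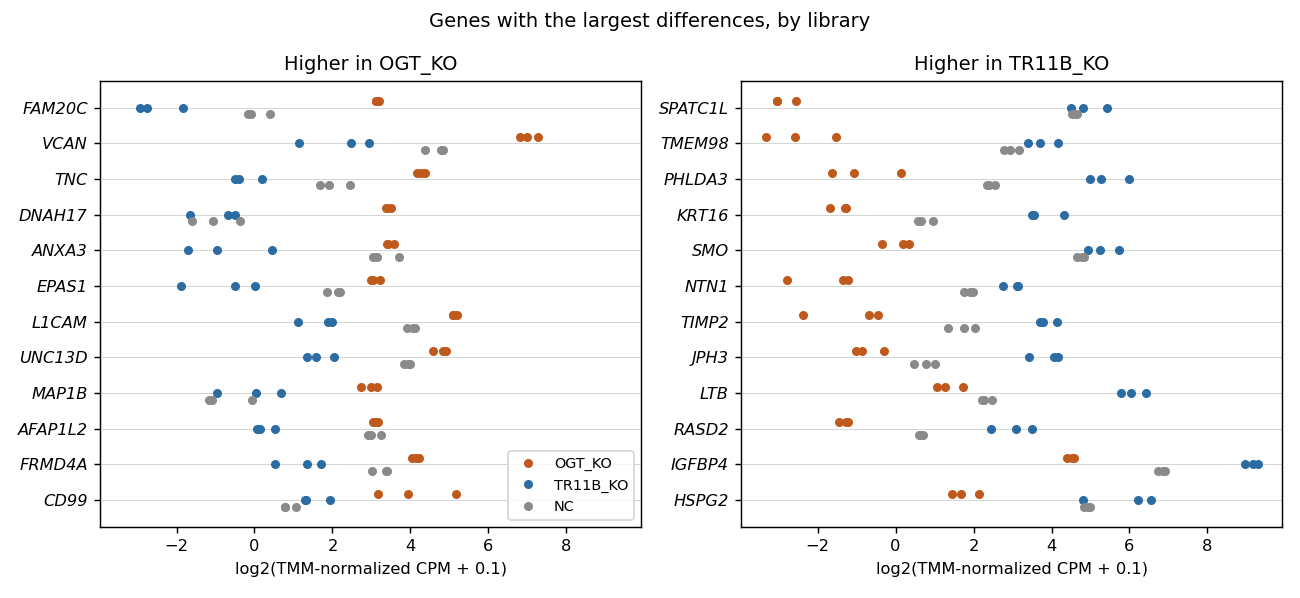
Level of the 12 genes with the largest difference in each direction among called genes whose log2 CPM averaged 2 or more and whose groups did not overlap, by library, as log2(CPM + 0.1) on the horizontal axis; each point is 1 library, coloured by group, and grey NC points were not tested. No OGT_KO point overlaps a TR11B_KO point in any row, and NC lies near one group for some genes (SPATC1L, ANXA3, DNAH17) and between the groups for others (VCAN, TNC, IGFBP4).

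A few other genes were nearly undetected in one group and present in the other. CAND2 had 2 counts over the 3 OGT_KO libraries and 729 over TR11B_KO, a ratio of 0.00274 (95% exact interval 0.000332 to 0.00995). The scavenger receptor gene SCARA3 had 3 against 631 (0.00475, 0.000978 to 0.014), and C2CD4A had 4 against 611 (0.00655, 0.00178 to 0.0168). In the other direction, the uncharacterised transcript LOC105379051 had 281, 196 and 192 counts in OGT_KO and 0 in every TR11B_KO library, so that its sum was at least 223-fold higher when 3 counts over the group are taken as the limit. These ratios are of raw count sums. For each of these genes the exact permutation test gave p = 0.1, the smallest value that 3 against 3 allows. The genes were chosen by these same counts, so that outcome follows largely from the choice and adds no support.

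Cell division was the programme with the largest number of members higher in OGT_KO, though not the largest share, which was 47.8% in the junction genes below. Mitotic genes are switched on together in the G2 phase and mitosis, when cells assemble the spindle, attach chromosomes to it and check that attachment. Of 44 genes tested, 18 (40.9%, against 12% of all genes) were higher in OGT_KO and 1 was higher in TR11B_KO, with a median log2 fold change of 0.67 where that of all genes was 0.02. HMMR, a spindle-assembly factor, had 2.31, 3.38 and 3.09 CPM against 0.582, 0.476 and 0.496 CPM (2.49 ± 0.34, edgeR adjusted p = 0.000508). KIF23, a kinesin of the central spindle needed for cytokinesis, had 7.99, 9.23 and 9.09 CPM against 2.77, 3.33 and 2.24 CPM (1.66 ± 0.27, adjusted p = 0.00135). CENPF, a kinetochore protein, had 18.3, 22.6 and 15.8 CPM against 5.73, 8.28 and 6.78 CPM (1.45 ± 0.26, adjusted p = 0.00253). In each of these the groups did not overlap, as in 45.5% of all tested genes, and NC (means of 1.5, 6.61 and 9.24 CPM) lay between the group means. FOXM1, the transcription factor that drives the G2 and mitosis programme, had 148, 153 and 117 CPM against 56.6, 69.3 and 77 CPM (1.04 ± 0.21, adjusted p = 0.00421). NC, with a mean of 136 CPM, was here at the level of OGT_KO. The exception was MAD2L1, a spindle checkpoint protein, with 6.67, 5.01 and 5.95 CPM against 28, 15.6 and 14 CPM (−1.71 ± 0.31, adjusted p = 0.0024). The other members called higher in OGT_KO were CDC25B, BUB1, BUB1B, TTK, CENPE, CENPI, NDC80, KIF14, TPX2, ECT2, ANLN, ASPM, CKAP2 and DLGAP5. Summed over the 44 genes, NC had 4021, 4173 and 3997 CPM. This was above both OGT_KO (3454, 3344 and 3370 CPM) and TR11B_KO (2637, 2788 and 2491 CPM). The 18 became 11, 6 and 15 without OGT_KO replicate 1, 2 and 3, while leaving out TR11B_KO replicate 1, 2 and 3 gave 25, 25 and 11, and 17 with the correction for gene length. In bulk RNA, fewer cells of a kind and less RNA per cell cannot be told apart.

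Genes of the earlier cell cycle were called in small numbers on both sides. Of 42 genes of DNA replication and the G1/S transition, 3 were higher in OGT_KO and 2 in TR11B_KO, with a median of 0.02. POLA1, the catalytic subunit of DNA polymerase alpha, was among the 3, with 3.27, 3.43 and 2.76 CPM against 0.825, 1.14 and 0.548 CPM (1.92 ± 0.34, edgeR adjusted p = 0.00241). The counts were 1 to 6 and 0 to 6 when 1 library was left out: they reached 6 higher in OGT_KO without TR11B_KO replicate 1 and 6 higher in TR11B_KO without TR11B_KO replicate 2. Whether the mitosis and replication lists differ from each other was not tested.

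Promoters of mitotic genes are known to hold a cell cycle homology region, CHR, with the core TTTGAA, and CCAAT boxes bound by the factor NF-Y. The sequences below come from RefSeq (GRCh38.p14), run 5′ to 3′ on the strand of the gene, stop at the transcription start at the latest, and show the motif in capitals with up to 30 bases on either side. They are shown because HMMR, KIF23 and CENPF are the mitotic genes with the smallest adjusted p among those higher in OGT_KO.
HMMR CHR, chr5:163460580-163460631, plus strand, 17 to 22 bases before the start: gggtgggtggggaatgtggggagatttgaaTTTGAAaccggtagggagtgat
KIF23 CHR, chr15:69414264-69414329, plus strand, 50 to 55 bases before the start: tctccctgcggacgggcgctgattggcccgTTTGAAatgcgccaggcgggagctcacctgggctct
CENPF CCAAT box, chr1:214603132-214603194, plus strand, 29 to 33 bases before the start: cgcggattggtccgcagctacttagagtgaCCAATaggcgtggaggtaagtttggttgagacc
In the window from 250 bases before to 50 after the start, TTTGAA on either strand was found in 11 of 16 matched promoters of called mitotic genes (68.8%) and in 25 of 37 of all tested mitotic genes (67.6%). It was found in 8.93% of the 10015 matched promoters of tested genes and in 15.4% of all 27305 promoters of the table. CCAAT was found in 9 of the 16 (56.2%), in 27 of the 37 (73.0%), and in 36.7% and 35.7% of the wider sets. The 16 were called in either direction and include MAD2L1, which was higher in TR11B_KO. The motifs thus mark the list as a whole, at similar shares in its called members for TTTGAA, and a match is a description and not a bound site.

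Several epithelial junction genes were also higher in OGT_KO. Tight junctions seal the space between epithelial cells and desmosomes anchor keratin filaments at cell contacts. Of 23 tested genes of claudins, tight junctions and desmosomes, 11 (47.8%) were higher in OGT_KO and 1 in TR11B_KO, with a median of 0.94. Desmoplakin (DSP), which links desmosomes to keratin, had 25.5, 34.2 and 25.3 CPM against 6.26, 4.79 and 4.82 CPM (2.42 ± 0.26, edgeR adjusted p = 9.67e-05). Periplakin (PPL), of the same plakin family, had 44.7, 46.9 and 42 CPM against 5.51, 10.4 and 10.7 CPM (2.33 ± 0.28, adjusted p = 0.000219). These plakins were several-fold apart with no overlap, and their NC means were 11 and 13.8 CPM, nearer to TR11B_KO. The third plakin on the list, envoplakin (EVPL), went the other way, with 17.4, 15 and 17.9 CPM against 52.8, 130 and 89.4 CPM (−2.43 ± 0.30, adjusted p = 0.00027). TJP1, the scaffold protein of tight junctions, had 5.66, 6.42 and 6.78 CPM against 2.04, 1.21 and 1.41 CPM (2.01 ± 0.30), and the desmosomal cadherin gene DSC3 had 8.69, 9.41 and 10.9 CPM against 2.67, 2.32 and 2.53 CPM (1.94 ± 0.26). CLDN1, CLDN4, OCLN, DSG2, DSC2, PKP4 and JUP completed the 11. The count was 7 without OGT_KO replicate 2, 8 without OGT_KO replicate 1 or 3, 9 without TR11B_KO replicate 3 and 14 without TR11B_KO replicate 2. EPCAM and CDH1 were too low to be tested.

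Keratins, the filaments those desmosomes hold, split in both directions. Of 10 tested, 2 were higher in OGT_KO and 5 in TR11B_KO (against 13.6% of all genes), with a median of −1.0. KRT16 had 0.313, 0.308 and 0.213 CPM against 11.2, 20 and 11.7 CPM (−5.66 ± 0.38, edgeR adjusted p = 4.79e-06), and its NC mean was 1.57 CPM. KRT86, a hair-type keratin, had 4.28, 3.08 and 6.16 CPM against 30.7, 40 and 35.4 CPM (−2.97 ± 0.30). KRT80 had 278, 265 and 330 CPM against 84.3, 117 and 93.6 CPM (1.57 ± 0.21, adjusted p = 0.000437), and KRT17 had 4.16, 4.18 and 4.39 CPM against 1.67, 1.24 and 2.22 CPM (1.31 ± 0.30, adjusted p = 0.00856). These 4 keratins, named because they were called, separated the groups without overlap, as did 45.5% of all tested genes. KRT16 did so by far the most. KRT18, a main keratin of simple epithelia, had 3513, 2655 and 3407 CPM against 5339, 9396 and 5579 CPM (−1.09 ± 0.25, adjusted p = 0.00882), a call lost without OGT_KO replicate 2 and with the length correction (−0.77). The 5 higher in TR11B_KO became 3 without OGT_KO replicate 2 and 3 with the length correction.

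Extracellular matrix genes changed in both directions, and strongly. Of 24 tested matrix glycoproteins, collagens and proteoglycans, 6 were higher in OGT_KO (25.0%) and 7 in TR11B_KO (29.2%), with a median of 0.05. Besides VCAN and TNC, the OGT_KO side held thrombospondin 1 (THBS1), with 49.8, 53.3 and 50.1 CPM against 17.5, 14.6 and 18.5 CPM (1.60 ± 0.21, edgeR adjusted p = 0.000414), and fibronectin (FN1), with 1.75, 2.59 and 2.15 CPM against 0.121, 0.698 and 0.261 CPM (2.62 ± 0.53). On the TR11B_KO side, biglycan (BGN), a small leucine-rich proteoglycan, had 0, 0.132 and 0.165 CPM against 3.86, 10.8 and 5.5 CPM (−6.05 ± 0.65). Perlecan (HSPG2), the heparan sulfate proteoglycan of basement membranes, had 2.64, 3.08 and 4.27 CPM against 28, 93.8 and 74.1 CPM (−4.29 ± 0.42, adjusted p = 5.25e-05). COL6A2, a collagen VI chain, had 88.3, 80.5 and 103 CPM against 277, 420 and 360 CPM (−1.96 ± 0.22). The mRNA of matrix genes therefore differed in both directions, and the matrix itself was not measured. NC had 58.4 CPM of THBS1, at the OGT_KO level, and 30.2 CPM of HSPG2, at the level of the lowest TR11B_KO library. The 7 higher in TR11B_KO were 4 without any 1 of the OGT_KO libraries or without TR11B_KO replicate 3.

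Laminins are heterotrimers of an alpha, a beta and a gamma chain in the basement membrane, and 5 of the 7 tested chains were called. LAMA5 had 379, 420 and 433 CPM against 56.4, 92.4 and 105 CPM (2.28 ± 0.25, edgeR adjusted p = 0.000117). LAMB1 had 35, 40.8 and 38 CPM against 5.02, 4.06 and 7.41 CPM (2.78 ± 0.28), and LAMB3 had 151, 132 and 148 CPM against 31.4, 47.6 and 42.3 CPM (1.83 ± 0.21). The other beta chain, LAMB2, had 139, 127 and 148 CPM against 222, 418 and 332 CPM (−1.23 ± 0.24). Beta chains thus lay on both sides, with no overlap between the groups. The numbers called, 3 and 2, were the same in each fit without 1 library, except for 4 higher in OGT_KO without TR11B_KO replicate 2.

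Matrix-modifying enzymes and their inhibitors followed the same mixed pattern, with 4 of 19 higher in OGT_KO (21.1%) and 6 in TR11B_KO (31.6%). The transglutaminase gene TGM2, whose product crosslinks proteins, had 1643, 1468 and 1720 CPM in OGT_KO and 250, 377 and 316 CPM in TR11B_KO (2.36 ± 0.22, edgeR adjusted p = 3.84e-05). NC had a mean of 1890 CPM, so that the TR11B_KO libraries were the low ones. The metalloproteinase inhibitor TIMP2 had 0.627, 0.528 and 0.0945 CPM against 13, 17.6 and 13.7 CPM (−5.13 ± 0.48). PLAUR, the urokinase receptor, had 9.14, 6.53 and 7.51 CPM against 39.8, 42.5 and 43.9 CPM (−2.45 ± 0.24), and the NC mean of 36.1 CPM places the low values in OGT_KO. MMP17, a membrane-type metalloproteinase, had 7.86, 5.69 and 6.33 CPM against 29.7, 71.7 and 41.5 CPM (−2.84 ± 0.33, adjusted p = 0.000164). The sheddase gene ADAM9 had 14.4, 16.8 and 14.6 CPM against 4.8, 6.44 and 5.87 CPM (1.42 ± 0.25). Left-out libraries gave 2 (without OGT_KO replicate 2) to 6 (without TR11B_KO replicate 2) calls on the OGT_KO side and 4 (without OGT_KO replicate 2 or 3) to 7 (without TR11B_KO replicate 2) on the TR11B_KO side.

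Some growth factor receptors and ligands that act through tyrosine kinases were higher in OGT_KO. Of 12 tested EGFR and PDGF family genes, 4 (33.3%) were higher in OGT_KO in edgeR and 0 in TR11B_KO, with a median of 0.73. The 0 was also 0 at an unadjusted p under 0.05, in DESeq2 and in limma on FPKM, and it was 1 without TR11B_KO replicate 2. EGFR, the receptor for epidermal growth factor, had 74.4, 95.3 and 73.9 CPM against 16.3, 19.7 and 22.2 CPM (2.06 ± 0.22, edgeR adjusted p = 9.67e-05). PDGFB, a ligand for the PDGF receptors, had 45.9, 52.2 and 42.1 CPM against 10.4, 7.14 and 11.9 CPM (2.25 ± 0.25, adjusted p = 0.00014). MET, the receptor for hepatocyte growth factor, had 28.1, 29.3 and 22.4 CPM against 8.71, 7.33 and 7.09 CPM (1.79 ± 0.24, adjusted p = 0.000455). The NC means differ in where they lie: 38.8 CPM for EGFR and 13.1 CPM for MET are between the groups, while 62.3 CPM for PDGFB is above both. The fourth called gene was PDGFC. Left-out libraries gave 3 calls (without OGT_KO replicate 1 or 2) to 6 (without TR11B_KO replicate 2).

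Some adhesion and contractile genes were also higher in OGT_KO. Of 12 integrin subunits, which join cells to the matrix, 4 (33.3%) were higher in OGT_KO, and of 31 actin-binding and contractile genes 6 (19.4%), with 0 in TR11B_KO in each list by edgeR and 1 in each at an unadjusted p under 0.05 and in DESeq2, and 0 in limma. ITGB3, the beta chain of the vitronectin receptor, had 15.1, 14.9 and 14.1 CPM against 2.64, 1.43 and 4.33 CPM (2.38 ± 0.36, edgeR adjusted p = 0.000873). MYL9, a regulatory light chain of non-muscle and smooth muscle myosin, had 1346, 1226 and 1302 CPM against 481, 524 and 431 CPM (1.43 ± 0.19, adjusted p = 0.000437). Caldesmon (CALD1), which binds actin and myosin, had 10.5, 12.1 and 9.26 CPM against 2.06, 2.28 and 1.72 CPM (2.39 ± 0.27, adjusted p = 0.000148). In these 3 called genes every OGT_KO library exceeded every TR11B_KO library, as in 23.7% of all tested genes. The integrin count was 1 without OGT_KO replicate 1 or 2, 3 without OGT_KO replicate 3 and 2 without TR11B_KO replicate 3, and the contractile count was 3 without OGT_KO replicate 2 and 11 without TR11B_KO replicate 2, where 5 others were higher in TR11B_KO. Of 19 targets of the transcriptional coactivators YAP and TAZ, which respond to tension, 9 (47.4%) were higher in OGT_KO and 4 (21.1%) in TR11B_KO. MYOF, a membrane-repair protein gene on that list, had 38.6, 57.6 and 44.1 CPM against 11.9, 8.18 and 10.6 CPM (2.19 ± 0.25). The 9 became 5, 3 and 5 without OGT_KO replicate 1, 2 and 3, 6 without TR11B_KO replicate 3 and 6 with the length correction, and the 4 became 1, 1 and 2 without the OGT_KO replicates and 1 without TR11B_KO replicate 3.

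Several Hedgehog genes were higher in TR11B_KO, and the receptor gene PTCH1 was higher in OGT_KO. In this pathway the ligand SHH binds PTCH1, which releases SMO, and GLI transcription factors carry the signal to the nucleus. Of 11 genes tested, 5 (45.5%) were higher in TR11B_KO and 1 in OGT_KO, and the 5 were 5 without any 1 of the 6 libraries. The ligand gene SHH had 9.34, 6.33 and 6.31 CPM against 19.7, 19.3 and 21.3 CPM (−1.46 ± 0.26, edgeR adjusted p = 0.0021). SMO was described above, and GLI2 had 0 counts in OGT_KO and 95 in TR11B_KO, at least 31.7-fold higher with 3 counts over the group as the limit. GLI3 had 0.179, 0.154 and 0.0708 CPM against 1.02, 1.46 and 0.574 CPM (−2.88 ± 0.59, adjusted p = 0.00516), and KIF7, a kinesin that regulates GLI proteins at the cilium, had 11, 10.9 and 11.6 CPM against 22.2, 32.3 and 29.8 CPM (−1.33 ± 0.24). These 5 called genes did not overlap between the groups, as was so for 45.5% of all tested genes, and GLI2 and GLI3 were low in every library. PTCH1, which is itself a target of the pathway, had 1.68, 2.53 and 2.39 CPM against 0.776, 0.222 and 0.626 CPM (1.99 ± 0.44, adjusted p = 0.00759), and it was not called without OGT_KO replicate 2 (1.89, adjusted p = 0.057). The list's median was 0.12 (−0.09 with the length correction), with 6 positive and 5 negative members, and the negative ones were the 5 called.

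Wnt genes were called in both directions, 4 higher in OGT_KO and 5 in TR11B_KO of 27 tested (14.8% and 18.5%), near the background. The ligand genes WNT7B and WNT5B went opposite ways. WNT7B had 99.6, 89.2 and 95.2 CPM against 22.4, 40.9 and 28.4 CPM (1.63 ± 0.24, edgeR adjusted p = 0.000797), and WNT5B had 109, 96.2 and 118 CPM against 333, 434 and 358 CPM (−1.80 ± 0.20, adjusted p = 0.000148). The NC means of 51.4 CPM for WNT7B, between the groups, and 324 CPM for WNT5B, near the TR11B_KO level, differ accordingly. The called binding proteins of the insulin-like growth factors were all higher in TR11B_KO, 3 of 10 tested genes on that axis, where the receptor gene IGF2R was the 1 called higher in OGT_KO (0.85 ± 0.25). IGFBP6 had 14.8, 10.3 and 17.6 CPM against 79.2, 167 and 99 CPM (−3.02 ± 0.31, adjusted p = 8.03e-05), IGFBP7 had 217, 188 and 211 CPM against 507, 378 and 401 CPM (−1.06 ± 0.20), and IGFBP4 is given above. The 3 were 3 without any 1 of the 6 libraries, while the 1 was 0 without OGT_KO replicate 1, 2 or 3 and with the length correction, and 2 without TR11B_KO replicate 1 or 2.

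TGF-beta genes were called often but unstably. Of 26 ligands, receptors and SMAD targets, 10 (38.5%) were higher in TR11B_KO and 5 (19.2%) in OGT_KO. TGFB2, a ligand, had 3.09, 2.99 and 2.48 CPM against 0.849, 0.952 and 0.809 CPM (1.71 ± 0.31, edgeR adjusted p = 0.00249). The 10 became 3, 0 and 3 without OGT_KO replicate 1, 2 and 3, also 3 in the absence of TR11B_KO replicate 3, and the 5 became 2, 1 and 3 and 3 without the same 4 libraries.

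**Figure D2:**
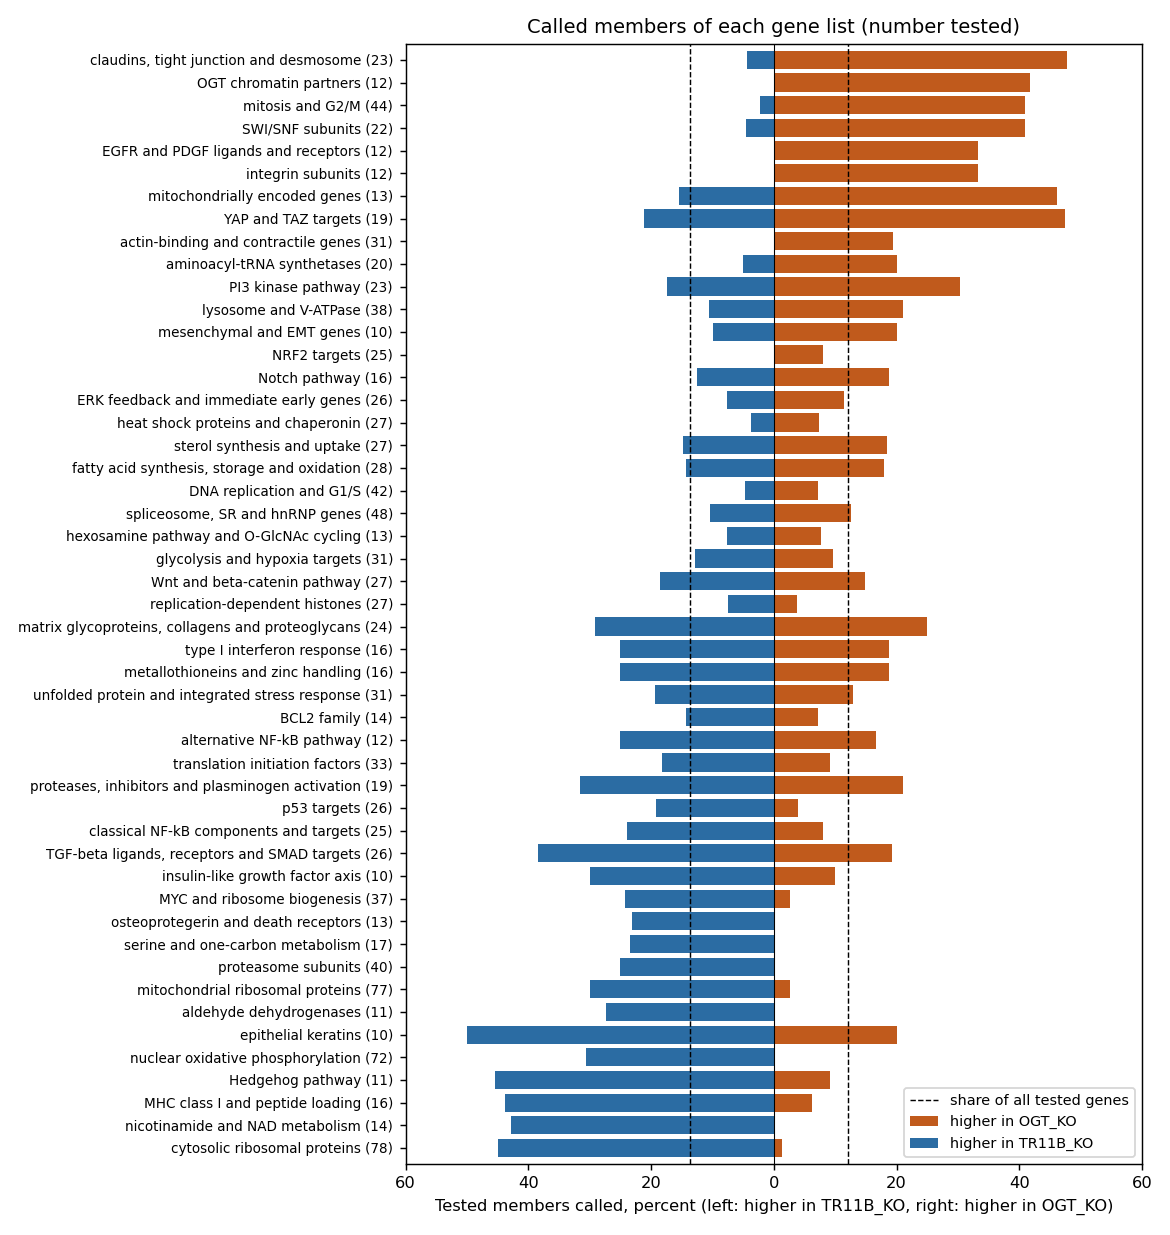
Share of tested members of each gene list of 10 or more tested genes that was called higher in OGT_KO (right, orange) or in TR11B_KO (left, blue), in percent; the number tested stands beside each name and dashed lines mark the 12% and 13.6% of all tested genes. Junction genes, YAP and TAZ targets and mitochondrially encoded genes reach farthest right (47.8%, 47.4% and 46.2%), and keratins, Hedgehog genes (45.5%) and cytosolic ribosomal proteins (44.9%) farthest left.

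Inflammatory signalling differed gene by gene. LTB, the membrane-bound ligand of the lymphotoxin beta receptor that feeds the alternative NF-kB pathway, had 3.22, 2.29 and 1.98 CPM in OGT_KO and 55.2, 85.6 and 66.2 CPM in TR11B_KO (−4.78 ± 0.30, edgeR adjusted p = 3.49e-06). NC was at 4.59 to 5.43 CPM, so the TR11B_KO libraries were the high ones. MAP3K14, the kinase NIK of the same pathway, had 35.2, 34.2 and 40 CPM against 14.3, 15.1 and 15.8 CPM (1.28 ± 0.21, adjusted p = 0.0017), and both groups lay below the NC mean of 80.6 CPM. Colony-stimulating factors were higher in TR11B_KO: CSF1, the macrophage growth factor, had 0.537, 1.1 and 1.04 CPM against 7.76, 9.9 and 12.7 CPM (−3.50 ± 0.35, adjusted p = 6.25e-05), and CSF2 had 1.05, 0.725 and 1.49 CPM against 6.65, 5.99 and 4.98 CPM (−2.43 ± 0.33). The adaptor gene TRAF1 had 3.34, 2.4 and 3.14 CPM against 8.76, 12.7 and 10.1 CPM (−1.83 ± 0.28), and the inhibitor gene NFKBIB had 71.7, 60 and 66.4 CPM against 148, 160 and 161 CPM (−1.24 ± 0.19). As whole lists, the alternative pathway had 2 of 12 higher in OGT_KO and 3 in TR11B_KO, and the classical pathway and its targets 2 and 6 of 25 (8.0% and 24.0%). The 3 became 1 without any 1 OGT_KO library or TR11B_KO replicate 3, and the 2 became 1 without OGT_KO replicate 1. The classical 2 became 0 without any OGT_KO library, 1 without TR11B_KO replicate 3 and 5 without TR11B_KO replicate 2.

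The promoter of LTB is shown because this gene had the largest difference of the NF-kB lists and because its promoter is known to be bound by NF-kB. The match to the NF-kB site is in capitals, on the strand opposite to the gene, 77 to 86 bases before the start (RefSeq, GRCh38.p14).
LTB, chr6:31582472-31582541, minus strand: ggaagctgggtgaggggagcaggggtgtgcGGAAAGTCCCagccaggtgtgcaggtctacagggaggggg
The site was found in 1 of 3 matched promoters of members of the alternative list called in either direction and in 2 of 6 of the classical list (33.3% in each), in 2 of 8 (25.0%) and 9 of 20 (45.0%) of all their tested members, and in 13.5% of the promoters of tested genes.

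Antigen presentation leaned to TR11B_KO. MHC class I molecules display peptides cut by the proteasome and trimmed and loaded in the endoplasmic reticulum. Of 16 genes tested, 7 (43.8%) were higher in TR11B_KO and 1 in OGT_KO, with a median of −0.42. The non-classical class I gene HLA-E had 233, 202 and 234 CPM against 537, 851 and 620 CPM (−1.59 ± 0.22, edgeR adjusted p = 0.000576). PSMB10, an immunoproteasome subunit, had 140, 113 and 135 CPM against 223, 304 and 258 CPM (−1.02 ± 0.20), a call lost with the length correction (−0.57). The peptide-trimming enzyme gene ERAP1 was the exception, with 11.4, 13.3 and 12 CPM against 6.72, 4.22 and 6.23 CPM (1.09 ± 0.27, adjusted p = 0.0118, and 0.0759 without OGT_KO replicate 2). The 7 became 4, 2 and 4 without OGT_KO replicate 1, 2 and 3, again 4 in the absence of TR11B_KO replicate 3, and 3 with the length correction. Interferon-response genes split, 3 and 4 of 16 (18.8% and 25.0%). The viral RNA sensor gene DDX58 had 2.89, 3.49 and 3.54 CPM against 0.558, 0.73 and 0.835 CPM (2.22 ± 0.32, adjusted p = 0.0007), and IFITM3, which restricts viral entry, had 39, 32.2 and 34.7 CPM against 11.5, 8.53 and 11.2 CPM (1.76 ± 0.23). On the other side, IRF7 had 14.3, 13.8 and 14 CPM against 31.3, 62.7 and 41.4 CPM (−1.69 ± 0.27), IFI6 had 4.3, 4.13 and 5.46 CPM against 19.2, 14.6 and 17.5 CPM (−1.88 ± 0.26), and USP18 had 1.16, 2.29 and 2.6 CPM against 14.7, 7.8 and 15.4 CPM (−2.65 ± 0.37). Genes induced by the same interferons were thus found on both sides with no overlap between groups. Complement C3 had 39.3, 49.1 and 48 CPM against 9.92, 12.7 and 12 CPM (1.98 ± 0.23, adjusted p = 0.000161), with an NC mean of 69.5 CPM.

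Metabolic genes separated the groups in both directions. PHGDH, the first enzyme of serine synthesis, had 26, 21.7 and 27.5 CPM against 235, 377 and 263 CPM (−3.54 ± 0.25, edgeR adjusted p = 5.24e-06), and its NC mean of 63.8 CPM lay between the groups. DGAT2, which completes triglycerides, had 2.82, 2.64 and 2.69 CPM against 26.1, 34.9 and 28.7 CPM (−3.46 ± 0.26, adjusted p = 7.15e-06). CPT1A, which admits fatty acids to mitochondria, had 22.3, 24.6 and 21.1 CPM against 6.84, 6.15 and 9.08 CPM (1.62 ± 0.25, adjusted p = 0.00104), and the desaturase gene SCD had 159, 179 and 151 CPM against 67.6, 42.6 and 88 CPM (1.30 ± 0.25). For both of these, NC was at the TR11B_KO level (6.81 and 69 CPM). Sterol genes as a list had 5 of 27 higher in OGT_KO and 4 in TR11B_KO (18.5% and 14.8%). The 5 became 2 without OGT_KO replicate 1 or 2 or TR11B_KO replicate 3 and 9 and 10 without TR11B_KO replicate 1 and 2, and the 4 became 0, 0 and 1 without OGT_KO replicate 1, 2 and 3, 2 without TR11B_KO replicate 3 and 0 with the length correction.

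Nicotinamide and NAD metabolism had 6 of 14 members higher in TR11B_KO (42.9%) and 0 in OGT_KO in edgeR, a 0 that was also found at an unadjusted p under 0.05, in DESeq2 and in limma. NNMT, which methylates nicotinamide, had 5.8, 3.69 and 4.04 CPM against 15.4, 18.2 and 14.2 CPM (−1.82 ± 0.27, edgeR adjusted p = 0.000878), and NC, with a mean of 76.7 CPM, was above both groups. The enzymes that make NAD from nicotinic acid and quinolinic acid, NAPRT and QPRT, had log2 fold changes of −1.18 and −0.91. Neither was called without OGT_KO replicate 2 (−1.10, adjusted p = 0.0668, and −0.83, adjusted p = 0.0543). The 6 became 3, 1 and 4 without OGT_KO replicate 1, 2 and 3, again 4 in the absence of TR11B_KO replicate 3. In glycolysis, the phosphofructokinase genes PFKL and PFKM were higher in TR11B_KO. PFKL had 289, 249 and 316 CPM against 796, 1417 and 1032 CPM (−1.92 ± 0.24, adjusted p = 0.000308) and PFKM had 29.6, 27.2 and 27.9 CPM against 68, 55.3 and 66.4 CPM (−1.16 ± 0.20). The glucose transporter gene SLC2A1 had 89.1, 87.3 and 86.7 CPM against 41.9, 46 and 53.7 CPM (0.89 ± 0.19, adjusted p = 0.00677). Of the 31 tested genes of glycolysis and hypoxia, 3 were higher in OGT_KO (9.68%) and 4 in TR11B_KO (12.9%). Both shares were below the 12% and 13.6% of all genes. The 3 became 5 and 7 without TR11B_KO replicate 1 and 2, and the 4 became 2 without any 1 OGT_KO library or TR11B_KO replicate 3 and 9 without TR11B_KO replicate 2.

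Many ribosome and respiratory chain genes were called higher in TR11B_KO, though most members of these lists were not called. Of 78 cytosolic ribosomal protein genes, 35 (44.9%) were higher in TR11B_KO and 1 in OGT_KO, with a median of −0.60. As a share of all counts these genes made up 11.4, 11.1 and 11.7% in the OGT_KO libraries, without overlap with the 16.3, 13.5 and 14.9% of TR11B_KO, and 10 to 10.8% in NC. RPS3, of the small subunit, had 4264, 3508 and 4423 CPM against 8535, 10757 and 9160 CPM (−1.22 ± 0.20, edgeR adjusted p = 0.00139), and RPL34, of the large subunit, had 52.6, 49.1 and 51.2 CPM against 307, 126 and 195 CPM (−2.04 ± 0.29, adjusted p = 0.000598). RPL34 shows the wide spread among the TR11B_KO libraries. Of 77 mitochondrial ribosomal proteins, 23 (29.9%) were higher in TR11B_KO and 2 in OGT_KO, and of 72 nuclear-encoded respiratory chain genes 22 (30.6%) and 0. That 0 was 1 at an unadjusted p under 0.05, 0 in DESeq2 and 2 in limma. COX7A2, a subunit of cytochrome oxidase, had 145, 122 and 139 CPM against 307, 360 and 320 CPM (−1.28 ± 0.19, adjusted p = 0.000881). Such reads can be shared with processed pseudogenes.

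These lists hold short genes, and their counts depended on gene length and on single libraries. The 35 cytosolic ribosomal genes became 17, 13 and 19 when OGT_KO replicate 1, 2 and 3 were left out, 56 and 20 when TR11B_KO replicate 2 and 3 were, and 13 with the length correction, where the median was −0.24. The 23 mitochondrial ribosomal genes became 7, 3 and 10 without the OGT_KO replicates, 41 and 11 without TR11B_KO replicate 2 and 3, and 8 with the length correction (median −0.13). The 22 respiratory chain genes became 5, 4 and 5, then 45 and 6, and 5 (median −0.15) in the same settings. With library totals as the only scaling the 3 counts were 18, 7 and 7. Proteasome subunits gave 10 of 40 higher in TR11B_KO (25.0%) and 0 in OGT_KO in edgeR, which was 0 at an unadjusted p under 0.05 and in DESeq2 and 1 in limma. That 10 was 5, 3 and 4 without OGT_KO replicate 1, 2 and 3, while leaving out TR11B_KO replicate 1, 2 and 3 gave 6, 18 and 6. With the length correction it was 3, and the median of −0.29 became −0.02. When GC content was corrected for together with length, the calls were 30, 14, 16 and 10 for the 4 lists in the order given, with medians of −0.31, −0.10, −0.13 and −0.10.

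Genes encoded in the mitochondrial DNA did not follow their nuclear partners. Their share of all counts was 2.67, 3.28 and 2.63% for OGT_KO against 1.74, 2.3 and 1.83% for TR11B_KO, and the groups did not overlap on this scale of raw totals. On the TMM scale used for the other levels they did: the summed level was 24696, 27623 and 24701 CPM against 17730, 28817 and 19619 CPM, with TR11B_KO replicate 2 the highest of the 6. Of the 13, 6 were higher in OGT_KO and 2 in TR11B_KO, and their median, 0.53, rose to 0.99 when length was corrected for (7 and 0 calls). ATP6, an ATP synthase subunit whose gene overlaps ATP8, had 2026, 2279 and 1775 CPM against 940, 1226 and 1037 CPM (0.92 ± 0.20, edgeR adjusted p = 0.00693), and was not called without OGT_KO replicate 2 or TR11B_KO replicate 3. The 6 became 1 and 0 without OGT_KO replicate 1 and 2, also 0 in the absence of TR11B_KO replicate 3, and the 2 became 0 without any OGT_KO library or TR11B_KO replicate 3 and 1 without TR11B_KO replicate 2.

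Ribosome biogenesis genes, which are targets of MYC, had 9 of 37 higher in TR11B_KO (24.3%) and 1 in OGT_KO, with a median of −0.35. MYC itself had 31.5, 37.5 and 33.6 CPM against 42, 12.7 and 33 CPM, overlapping groups with a log2 fold change of 0.23 ± 0.35 (edgeR adjusted p = 0.666) that turned to −0.08 without TR11B_KO replicate 2. Fibrillarin (FBL), the methyltransferase of ribosomal RNA, had 327, 289 and 265 CPM against 666, 657 and 734 CPM (−1.22 ± 0.19, adjusted p = 0.0012). POLR1G, an RNA polymerase I subunit, had 32.4, 30.5 and 25.7 CPM against 79.1, 57.7 and 72.7 CPM (−1.24 ± 0.21, adjusted p = 0.0019). For both, the NC means of 571 and 67.7 CPM were nearer to TR11B_KO. MYC binds the E-box CACGTG, and the POLR1G stretch is shown because it holds that core next to the start.
POLR1G, chr19:45406602-45406643, plus strand, 7 to 12 bases before the start: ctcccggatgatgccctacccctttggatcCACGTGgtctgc
CACGTG was found in 6 of 10 matched promoters of members called in either direction (60.0%), in 13 of 31 of the tested list (41.9%) and in 10.4% of the promoters of tested genes. The 9 became 5, 3 and 5 without OGT_KO replicate 1, 2 and 3 and 5 with the length correction (median −0.14), and the 1 became 0 without any OGT_KO library or TR11B_KO replicate 3 and 3 and 4 without TR11B_KO replicate 1 and 2. Without TR11B_KO replicate 1 the median was 0.04, though 12 members were called higher in TR11B_KO. The median was −0.09 with library totals as the only scaling and 0.07 in limma on log2(FPKM + 1).

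Some chromatin genes were higher in OGT_KO. Of 22 SWI/SNF subunits, which form the ATP-driven complexes that slide nucleosomes, 9 (40.9%) were higher in OGT_KO and 1 in TR11B_KO, with a median of 0.61. ARID1A, a DNA-binding subunit often mutated in cancer, had 24.7, 42.4 and 32.3 CPM against 10.6, 6.06 and 15 CPM (1.65 ± 0.33, edgeR adjusted p = 0.00442). SMARCD3 had 50.4, 38.5 and 54.5 CPM against 18.9, 25.1 and 16.6 CPM (1.24 ± 0.24, adjusted p = 0.0037), and both groups were above the NC mean of 9.76 CPM. The list as a whole was not: summed over the 22 subunits, NC had 1289, 1335 and 1175 CPM. OGT_KO had 1114, 1125 and 1112 CPM and TR11B_KO 945, 984 and 985 CPM. The NC mean of ARID1A, 28.8 CPM, was near the OGT_KO level. The 9 became 2, 2 and 4 without OGT_KO replicate 1, 2 and 3, 4 without TR11B_KO replicate 3 and 5 with the length correction, and the 1 became 0 without any OGT_KO library or TR11B_KO replicate 3 and 3 without TR11B_KO replicate 2. Of 12 chromatin partners of OGT, 5 (41.7%) were higher in OGT_KO and 0 in TR11B_KO in edgeR, a 0 that was also found at an unadjusted p under 0.05, in DESeq2 and in limma. HCFC1, a host cell factor that OGT cleaves, had 125, 149 and 134 CPM against 52.2, 53.4 and 88.8 CPM (1.07 ± 0.24, adjusted p = 0.00765), with an NC mean of 138 CPM, and was not called without OGT_KO replicate 2 (1.00, adjusted p = 0.0617). PROSER1 had 3.56, 4.75 and 3.45 CPM against 0.776, 0.888 and 0.835 CPM (2.23 ± 0.31, adjusted p = 0.000496). The 5 became 2 without OGT_KO replicate 2, 3 without TR11B_KO replicate 3 and 4 with the length correction, where the median of 0.79 became 0.52. When GC content was corrected for together with length, the count was 2 and the median 0.40.

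Death receptor signalling, which osteoprotegerin can blunt by binding TRAIL, held 3 genes higher in TR11B_KO of 13 tested (23.1%) and 0 in OGT_KO in edgeR, against 2 at an unadjusted p under 0.05 and 1 each in DESeq2 and limma. FADD, the adaptor that joins death receptors to caspase 8, had 44.6, 38.8 and 46.2 CPM against 108, 98.4 and 114 CPM (−1.31 ± 0.19, edgeR adjusted p = 0.000797), with an NC mean of 61.1 CPM. The groups were well apart for FADD, and the other called genes, TRADD (−0.69 ± 0.21) and CASP8 (−1.13 ± 0.39), each lost the call without any 1 OGT_KO library or TR11B_KO replicate 3. The 3 became 1 without any 1 OGT_KO library or TR11B_KO replicate 3 and 2 without TR11B_KO replicate 1, and 2 and 1 genes were higher in OGT_KO without TR11B_KO replicate 1 and 2.

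Stress and lysosome genes were separated one by one. Of 31 tested genes of the unfolded protein and integrated stress responses, 4 were higher in OGT_KO (12.9%) and 6 in TR11B_KO (19.4%). HSP90B1, the HSP90 of the endoplasmic reticulum, had 79.7, 80.4 and 61.2 CPM against 31.3, 30.3 and 25.1 CPM (1.35 ± 0.21, edgeR adjusted p = 0.00113), and the stress-induced transcription factor gene ATF3 had 14.4, 13 and 14.7 CPM against 5.94, 3.74 and 5.79 CPM (1.44 ± 0.27). In the opposite direction STC2, a secreted glycoprotein of the stress response, had 39.2, 31.8 and 29.6 CPM against 105, 91.3 and 95.9 CPM (−1.54 ± 0.20, adjusted p = 0.000412), and CRELD2 had 108, 95.6 and 107 CPM against 238, 304 and 266 CPM (−1.38 ± 0.20). The groups did not overlap for any of these 4 called genes, as for 45.5% of all tested genes, so known members of one response lay on both sides. The 4 became 2 without any 1 OGT_KO library or TR11B_KO replicate 3, and the 6 became 3 without OGT_KO replicate 2 and 11 without TR11B_KO replicate 2. In the lysosome, NPC1, which exports cholesterol, had 51.5, 66 and 55.6 CPM against 18.2, 15.8 and 28.4 CPM (1.47 ± 0.26), and the protease gene CTSH had 0.828, 0.396 and 0.543 CPM against 7.11, 8.09 and 7.46 CPM (−3.67 ± 0.33, adjusted p = 3.28e-05). Of 38 tested lysosome genes, 8 were higher in OGT_KO (21.1%) and 4 in TR11B_KO (10.5%). The 8 became 4, 2 and 4 without OGT_KO replicate 1, 2 and 3. NFE2L2, which encodes the oxidative stress factor NRF2, had 5.46, 7.87 and 6.47 CPM against 1.87, 1.74 and 2.58 CPM (1.67 ± 0.29). Of 25 tested NRF2 targets, 2 were higher in OGT_KO (8.0%, under the 12% of all genes) and 0 in TR11B_KO in edgeR, with a median of 0.11. That 0 was 2 at an unadjusted p under 0.05, 1 in DESeq2 and 0 in limma. Among zinc genes, the importer gene SLC39A6 had 13.6, 18.7 and 15.5 CPM against 2.69, 2.89 and 4.28 CPM (2.28 ± 0.29, adjusted p = 0.000296), and the metallothionein gene MT1X had 23.5, 27.4 and 23.8 CPM against 69.1, 58.8 and 65.4 CPM (−1.37 ± 0.20). That list of 16 tested genes had 3 higher in OGT_KO (18.8%) and 4 in TR11B_KO (25.0%).

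RNA splicing genes differed in a few core components. SNRNP200, a helicase of the U5 particle, had 268, 286 and 231 CPM against 78.3, 69.5 and 121 CPM (1.54 ± 0.24, edgeR adjusted p = 0.0011), and PRPF8, the U5 protein at the heart of the spliceosome, had 596 ± 88.9 CPM (SD, n = 3), no library under 540, against 196, 167 and 336 CPM (1.35 ± 0.27, adjusted p = 0.00414). The NC means of 256 and 627 CPM were at the level of OGT_KO for both. PRPF31, a protein of the U4 and U6 particle, had 205, 180 and 187 CPM against 388, 396 and 384 CPM (−1.03 ± 0.19, adjusted p = 0.00247). Of the 48 tested splicing genes, 6 were higher in OGT_KO (12.5%) and 5 in TR11B_KO (10.4%), near the background. The 6 became 2, 2 and 3 without OGT_KO replicate 1, 2 and 3, also 3 in the absence of TR11B_KO replicate 3, and the 5 became 1 without any 1 OGT_KO library, 2 without TR11B_KO replicate 3 and 16 without TR11B_KO replicate 2.

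**Figure D3:**
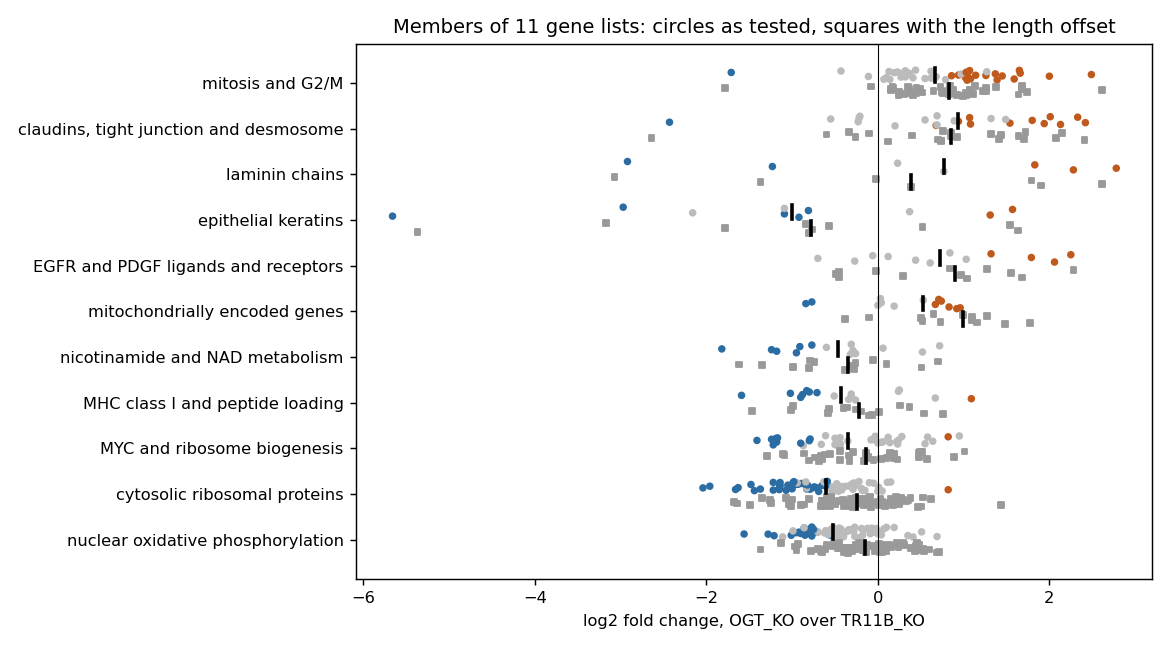
Log2 fold change (OGT_KO over TR11B_KO, horizontal axis) of every tested member of 11 gene lists; circles are the values as tested, orange where called higher in OGT_KO, blue where called higher in TR11B_KO and light grey otherwise, squares below them are the values with the length correction, and black bars are medians. The bars of the ribosomal protein and respiratory chain lists move from −0.60 to −0.24 and from −0.53 to −0.15, those of the mitosis and mitochondrially encoded lists from 0.67 to 0.83 and from 0.53 to 0.99.

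The difference between the groups followed gene length across the whole table. Ranked by the length that the deposited FPKM imply, the shortest of 5 equal groups of genes (111 to 2062 bases) had a median of −0.35 and 82 against 567 calls, and the longest (7163 to 47609 bases) had a median of 0.47 and 591 against 164 calls. The Spearman coefficient between length and log2 fold change was 0.34 over 12288 genes and 0.349 where the average log2 CPM reached 2. Genes are not independent of each other, and no test was made. With GC content it was −0.314 over 11517 genes. The libraries of a group had the same sign: the deviation from the mean of the 6 correlated with length positively in every OGT_KO library (0.227, 0.386, 0.261) and negatively in every TR11B_KO library (−0.244, −0.217, −0.243). Because that mean is over both groups, their opposite signs restate the group difference and do not show which group carries it. With length as an offset in the fit, the medians of the 5 groups lay between 0.01 and 0.13. That offset is a smooth trend on length fitted to these same libraries, so flat medians follow from how it was made. It also removes any difference between the groups that goes with length. Why the libraries differed by length was not tested.

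**Figure D4:**
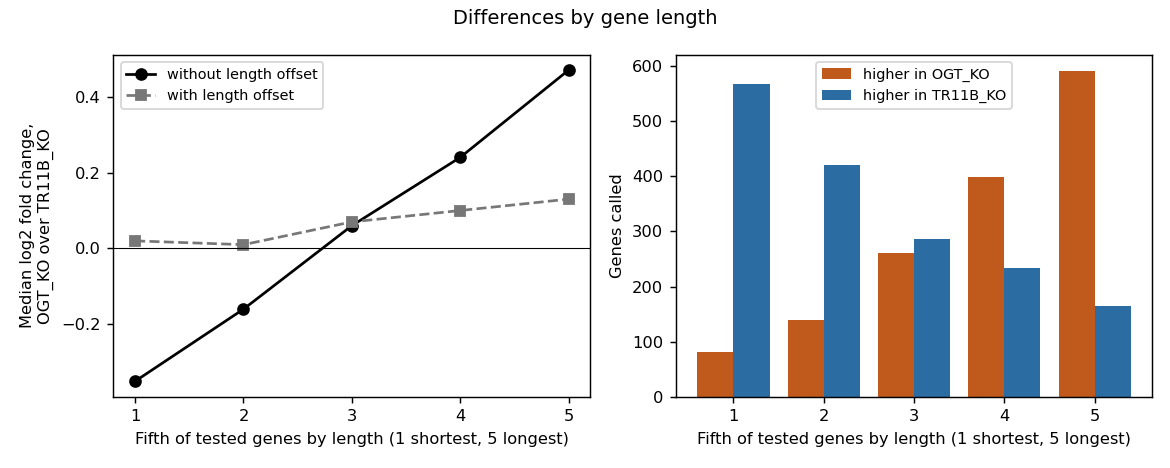
Left, median log2 fold change (OGT_KO over TR11B_KO) in 5 groups of tested genes ranked by length, without (solid) and with (dashed) the length offset; right, the number of genes called in each direction per group. The medians climb from −0.35 to 0.47 without the offset and stay between 0.01 and 0.13 with it, and calls higher in OGT_KO go from 82 to 591. The offset was fitted to these same libraries, so the flat dashed line follows from how it was made.

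Called genes were also grouped along the chromosomes. On chromosome 13, 62 of 193 tested genes were higher in OGT_KO (32.1%, against 12% overall) and 2 in TR11B_KO, with a median of 0.82. Over NC, the chromosome's medians were 0.14 for OGT_KO and −0.58 for TR11B_KO. On chromosome 21 the direction was opposite, with 6 higher in OGT_KO and 44 of 119 in TR11B_KO (37.0%), a median of −0.59, and −0.51 and 0.08 over NC. All 4 runs of consecutive tested genes on chromosome 13 lay between 0.70 and 1.11 and both runs on chromosome 21 below −0.4, at −0.47 and −0.72. The long arm of chromosome 19 held 8 neighbouring runs, from 34404399 to 49860742, with medians between −0.59 and −1.07. On either side of them the medians were −0.02 and −0.12. With the length correction those 8 runs lay between −0.37 and −0.89. The end of chromosome 12 (115958576 to 133214832) had medians of −0.54 and −0.60, and a run on chromosome 7 (75879034 to 92110673) had 0.83. PROSER1 lies on chromosome 13. SPATC1L, PFKL and COL6A2 lie on chromosome 21, and FBL, POLR1G, NFKBIB and PLAUR in the run of chromosome 19. The part of chromosomal position in their differences was not tested.

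**Figure D5:**
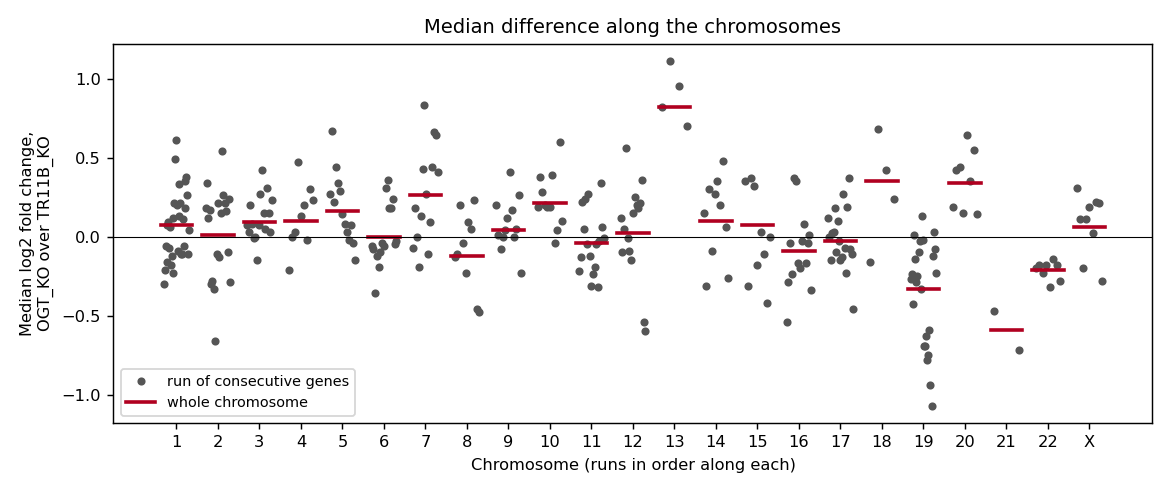
Median log2 fold change (OGT_KO over TR11B_KO) of each run of 40 or more consecutive tested genes (points, in order along each chromosome) and of each whole chromosome (red bars). Chromosome 13 lies at 0.82 and chromosome 21 at −0.59, and the long arm of chromosome 19 descends to −1.07.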

How the data were processed

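RNA of 9 samples was sequenced, and the 6 libraries of OGT_KO and TR11B_KO were analysed here, grouped by title. The submitters' processing notes list DESeq2, HTSeq, HISAT, fastp and R 3.2.0, and GRCh38 as the genome, but no role or setting for any of them. For strandedness, the same holds: it is not given in the sources used here. Of the 2 deposited tables, the count table holds the authors' whole-number reads per gene, unnormalized, and the other holds their FPKM for the same 19257 genes. Genes that share sequence with copies, or overlap, are uncertain.

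Counts were fitted in edgeR 4.0.16 (R 4.3.3) on the 6 libraries alone: filterByExpr kept 12288 genes, TMM gave the scaling factors, and p-values of the quasi-likelihood F test (robust) were adjusted over all tested genes (Benjamini-Hochberg), with a call at an adjusted p under 0.05. SE is the absolute log2 fold change over the square root of F. Each group's spread rests on 3 libraries of 38327508 to 41920820 counts. Levels are TMM-scaled CPM, and NC was put on the same scale without entering the fit. Intervals are exact and cover counting error only.

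The members and the 60 gene lists were chosen with earlier results of these data known, so lists are given as counts and medians beside those of all tested genes, with no test. Named genes are OGT, OGA and TNFRSF11B, the 12 with the largest difference each way (average log2 CPM of at least 2, no overlap of libraries), those near silent in 1 group, up to 5 called members of each list by smallest adjusted p with up to 2 of the opposite direction, and abundant called genes. Outside this rule, and after their values were seen, MYC, the cell line markers and further called members of the mitosis, junction and growth factor lists were named.

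Alternatives were DESeq2 1.42.0, RLE factors, library totals, no filter, CPM of at least 1 in 3 libraries, all 9 libraries, the replicate number as a block, each library left out, offsets for length or for length and GC content, and limma 3.58.1 on log2(FPKM + 1) or log2(FPKM + 0.1). The offsets, called corrections above, are smooth trends of each library's levels on length, or on length and GC content. They were fitted to these same 6 libraries. Positions and promoters (250 bases before to 50 after the start) came from RefSeq GRCh38.p14, and names matched 18554 of 19257 genes. Runs hold 40 consecutive tested genes. Motifs were searched on both strands: the CHR core TTTGAA, the CCAAT box, the E-box CACGTG and the NF-kB site, and the AP-1 site TGACTCA, found in 1 of 20 promoters of tested immediate early and ERK feedback genes (5.0%; 2.78% of tested genes). Some genes are not reported here.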

Additional observations from a re-analysis of the deposited data

How the results depend on the processing

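The 3145 calls ranged from 1056 (without OGT_KO replicate 2) to 5059 (without TR11B_KO replicate 2) when 1 library was left out, and 1042 and 3067 of the 3145 were kept in those fits. Leaving out a library reduces the samples in the test. Other settings gave 2098 calls (replicate block) to 4174 (all 9 libraries), with 3830 in DESeq2, 2430 with the length offset and 3746 with length and GC content, where 2129 and 2456 of the main calls were kept. The replicate numbers are a number only: same-numbered libraries of the groups had correlations of their deviations of −0.131, −0.217 and −0.00497, and the fit with the replicate block called 2098 genes. Of the calls, 46.8% were higher in OGT_KO, 71.9% with library totals alone, 73.1% in limma on log2(FPKM + 1) and 72.3% on log2(FPKM + 0.1). Of the 292 tested genes chosen by the naming rule, none changed direction in any alternative (MYC, named outside it, did without TR11B_KO replicate 2). Nearly all of the 292 were chosen because they were called in the main fit of these libraries. A kept direction follows largely from that choice. Of the 292, 121 lost their call without OGT_KO replicate 2, 63 with the length offset and 0 in DESeq2. Of the 3145 calls, 2137 were at least 2-fold, and at 3 libraries a group the precision is set by the spread between libraries (biological coefficient of variation 0.27).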
